A study of Mus musculus with 36 samples.

Results

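The replication-dependent histone genes supply the core histones H2A, H2B, H3 and H4 and the linker histone H1 that package newly made DNA. They were taken here as the RefSeq protein-coding genes of mm10 named H1f1 to H1f5, or H2ac, H2bc, H3c or H4c with a number, which gave 62 of the 21896 protein-coding genes. These were 5 H1, 17 H2A, 16 H2B, 12 H3 and 12 H4 genes, with 52 on chromosome 13 and 10 on chromosome 3. No gene so named lay on chromosome 11. A gene was called bound in a list when a summit of the TATA-binding protein (TBP) lay within 500 bp of either end of the gene.

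Histone genes of this class are transcribed mainly in S phase, have no introns in their classical form, and end their mRNAs in a stem loop in place of a poly(A) tail. H2A and H2B genes often stand head to head and share the sequence between their starts as a promoter. TBP, with its associated factors (TAFs), forms TFIID, which places RNA polymerase II at promoters, and the rapidly dividing embryonic stem (ES) cell has a large demand for histone mRNA.

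TBP was mapped by CUT&RUN, in which a nuclease tethered to the antibody cuts out the bound DNA, in mouse ES cells of 2 lines. RT7 carries R26CreERT2/+;Taf7flox/flox and RT10 carries R26CreERT2/+;Taf10flox/flox, so all groups share the inducible Cre at Rosa26, which is not tied to a cell type. Cells of each line were given 4-hydroxytamoxifen (4-OHT), to delete the floxed gene, or ethanol (EtOH) from day 1 to day 3, in medium with leukemia inhibitory factor, CHIR99021 and PD0325901. Each line and treatment had 2 TBP libraries and 1 IgG library, and 1 deposited list of TBP summits, so that no difference between treatments has a replicate check or a test. The lists held 2666 summits in RT7 EtOH, 1379 in RT7 4-OHT, 3102 in RT10 EtOH and 2188 in RT10 4-OHT. Each summit has a score, the authors' −log10 q of TBP over IgG. The labels of 2 IgG libraries give another treatment than their titles, and the titles, which match the peak names, were followed. The read depth behind a score is unknown, so a score was read only against other summits of its own list, as a rank or as a percentile (100 for the highest). Where a list has no summit at a gene, the authors' caller made no peak there. Of 8 ES cell marker genes 3 to 5 were bound per list, with Nanog, Klf2 and Tfcp2l1 in all 4 and Pou5f1, Klf4 and Esrrb in none. Of 5 fibroblast marker genes, Fn1 alone was bound, in both EtOH lists.

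The 250 bases before the start are given 5′ to 3′ on the gene's strand, from RefSeq (GRCm38.p6, the assembly of mm10), for 1 member of each histone type, to show how the promoters of the types differ. The member was the one with an entry in the table whose score was the highest of its type in any single list. H2bc12 was so chosen for its RT10 EtOH score, and H2bc8 or H2bc3 scored higher in the other lists. H1f2 led the H1 genes in all lists but RT7 4-OHT. Capitals mark the TATA box letters TATAAA, the CCAAT box, the octamer ATTTGCAT, AAACACA (the core of the H1 box) and GGGCGG (a GC box), each on either strand.
H1f2 (chr13:23738557-23738806, plus strand): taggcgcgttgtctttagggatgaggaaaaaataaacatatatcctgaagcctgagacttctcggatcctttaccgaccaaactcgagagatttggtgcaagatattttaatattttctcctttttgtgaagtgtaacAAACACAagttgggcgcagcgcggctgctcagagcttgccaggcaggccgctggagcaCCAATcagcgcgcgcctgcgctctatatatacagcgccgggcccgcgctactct
H2ac6 (chr13:23683960-23684209, minus strand): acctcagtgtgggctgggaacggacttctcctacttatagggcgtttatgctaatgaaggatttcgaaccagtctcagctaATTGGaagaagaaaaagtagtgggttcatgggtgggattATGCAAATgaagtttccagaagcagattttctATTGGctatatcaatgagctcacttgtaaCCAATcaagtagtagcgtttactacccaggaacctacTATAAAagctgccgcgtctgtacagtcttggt
H2bc12 (chr13:22035571-22035820, plus strand): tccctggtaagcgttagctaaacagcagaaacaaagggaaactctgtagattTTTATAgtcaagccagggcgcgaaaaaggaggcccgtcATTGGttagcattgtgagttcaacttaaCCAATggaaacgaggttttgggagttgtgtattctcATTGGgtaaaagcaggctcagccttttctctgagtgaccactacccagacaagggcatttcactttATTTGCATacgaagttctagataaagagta
H3c6 (chr13:23562386-23562635, minus strand): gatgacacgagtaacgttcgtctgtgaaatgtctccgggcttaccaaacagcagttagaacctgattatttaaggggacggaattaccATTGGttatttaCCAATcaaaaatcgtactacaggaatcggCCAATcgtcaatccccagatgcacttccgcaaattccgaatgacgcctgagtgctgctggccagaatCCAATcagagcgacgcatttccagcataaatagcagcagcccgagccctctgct
H4c8 (chr13:23530794-23531043, plus strand): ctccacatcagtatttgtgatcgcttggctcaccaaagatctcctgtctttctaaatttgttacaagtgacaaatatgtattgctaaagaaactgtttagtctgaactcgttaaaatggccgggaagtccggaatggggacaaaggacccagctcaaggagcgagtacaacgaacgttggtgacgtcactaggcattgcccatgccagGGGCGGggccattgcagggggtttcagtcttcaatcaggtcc
H2ac6 and H2bc12, members of divergent pairs, carry several CCAAT boxes, which bind the factor NF-Y, and so does H3c6, which is in no such pair. The H4c8 window holds no CCAAT and no TATAAA, and the window of the linker histone gene H1f2 holds the H1 box.

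Further windows, of 3 genes, belong to genes that had a TBP summit in some of the lists but not in others, and which are described below.
H4c9 (chr13:22041363-22041612, minus strand): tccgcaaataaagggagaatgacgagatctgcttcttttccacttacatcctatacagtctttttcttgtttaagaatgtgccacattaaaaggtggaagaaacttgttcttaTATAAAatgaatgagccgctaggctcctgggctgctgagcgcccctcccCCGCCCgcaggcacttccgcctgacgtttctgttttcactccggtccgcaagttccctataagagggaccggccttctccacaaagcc
H3c2 (chr13:23752095-23752344, plus strand): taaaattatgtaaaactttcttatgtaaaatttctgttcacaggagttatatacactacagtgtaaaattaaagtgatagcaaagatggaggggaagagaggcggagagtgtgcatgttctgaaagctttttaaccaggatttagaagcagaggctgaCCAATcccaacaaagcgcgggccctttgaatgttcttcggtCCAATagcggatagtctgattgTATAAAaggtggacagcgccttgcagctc
H1f1 (chr13:23763418-23763667, plus strand): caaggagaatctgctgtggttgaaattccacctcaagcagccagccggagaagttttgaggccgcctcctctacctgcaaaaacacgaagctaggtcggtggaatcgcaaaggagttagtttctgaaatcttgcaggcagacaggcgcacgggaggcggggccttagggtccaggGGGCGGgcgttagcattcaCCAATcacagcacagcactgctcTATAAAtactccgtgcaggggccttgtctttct
H1f1 and H3c2 hold TATAAA at positions -33 and -29 from the start, counted to the first base of the match, while the TATAAA of H4c9 lay at -137. Promoter windows of 57 of the 62 members were in the table. H2bc21, H2bc4, H3c1, H3c7 and H4c14 had no entry.

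TBP summits stood at 34 of the 62 histone genes in RT7 EtOH, 32 in RT7 4-OHT, 32 in RT10 EtOH and 34 in RT10 4-OHT. In RT7 EtOH this was 54.8% (exact Clopper-Pearson 95% interval 41.7 to 67.5, counting error only), against 5.31% of all protein-coding genes. In RT7 4-OHT it was 51.6% (38.6 to 64.5), against 2.73%. In RT10 EtOH the share was again 51.6%, against 5.95%, and in RT10 4-OHT it was 54.8%, against 3.85%. Over the lists together 37 members were bound in at least 1 list, against 7.83% of all protein-coding genes, and 29 in all 4, against 1.94%. Of the genes bound in at least 1 list, 24.8% of all protein-coding genes were bound in all 4.

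By type, 10 of 16 H2B, 9 of 17 H2A, 8 of 12 H4, 7 of 12 H3 and 3 of 5 H1 genes were bound in at least 1 list. In RT7 EtOH 9 of 17 H2A, 10 of 16 H2B, 5 of 12 H3, 8 of 12 H4 and 2 of 5 H1 genes were bound. After 4-OHT in RT7 the counts were 8, 8, 5, 8 and 3 in the same order, in RT10 EtOH 9, 9, 5, 7 and 2, and in RT10 4-OHT 8, 8, 7, 8 and 3. The intervals of the types overlapped in every list, for example 15.2% to 72.3% for H3 and 34.9% to 90.1% for H4 in RT7 EtOH. Bound in all 4 lists were 8 H2A, 8 H2B, 4 H3, 7 H4 and 2 H1 genes.

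**Figure D1:**
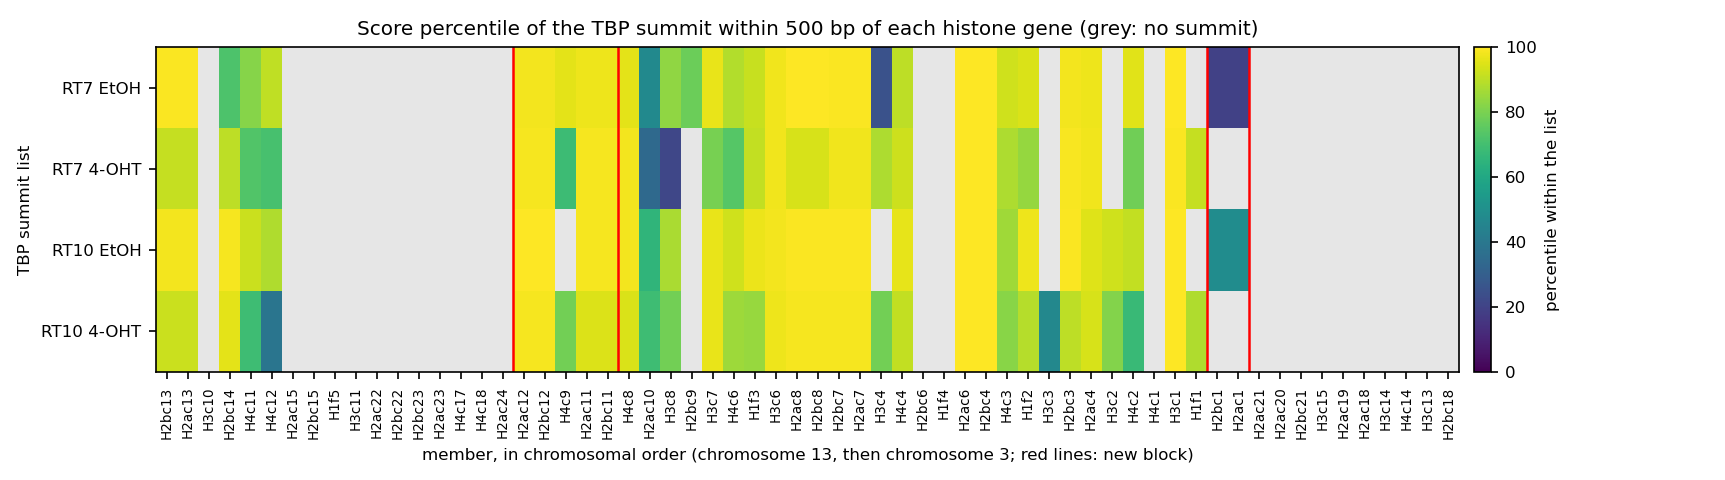
Score percentile (colour, 0 to 100) of the highest TBP summit within 500 bp of either end of each of the 62 histone genes (columns, in chromosomal order) in the 4 lists (rows), with grey for no summit and red lines between blocks of the genes. The 10 chromosome 3 genes at the right and 11 neighbouring chromosome 13 genes at the left are grey in every list, and H2ac6, H2bc4 and H3c1 are near the top of every list.

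Bound and unbound members were grouped along the chromosomes. The chromosome 13 genes fell into 4 blocks, separated by more than 100 kb. All 5 members of the block at 22035122 to 22043658 were bound in at least 1 list, as were 25 of the 28 at 23531044 to 23764412. In the block at 21715711 to 21833475 only 5 of 17 were, and these 5 (H2bc13, H2ac13, H2bc14, H4c11 and H4c12) were bound in all 4 lists.

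The other members of that block included 11 neighbours without a summit in any list, from H2ac15 to H2ac24, within 80.1 kb (chromosome 13, 21753377 to 21833475). They were H2ac15, H2bc15, H1f5, H3c11, H2ac22, H2bc22, H2bc23, H2ac23, H4c17, H4c18 and H2ac24. Over the 4 lists together there was no TBP summit from 21750723, at H4c12, to 21853970, a stretch of 103 kb. The 10 genes of chromosome 3 (96219885 to 96270192) were likewise bound in no list, which for 0 of 10 allows a share of up to 30.8%. That interval includes the shares of all protein-coding genes, 2.73% to 5.95% per list. The 10 genes were H2ac21, H2ac20, H2bc21, H3c15, H2ac19, H2ac18, H3c14, H4c14, H3c13 and H2bc18. The nearest summits of any list lay 150 kb before and 129 kb after them, and the summit-free stretch of 330 kb also held 6 other protein-coding genes, among them Sf3b4 and Otud7b. The remaining 4 genes without a summit within 500 bp of a gene end were H3c10, H2bc6, H1f4 and H4c1. H2bc6 had summits farther inside its annotated span, described below.

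Some of these genes are close copies of one another, and the sources used here do not give the treatment of reads that match several places. The 300-base promoter windows of H4c17 and H4c18 were 99.3% identical and those of H3c14 and H3c15 94.7%, and all 4 genes were unbound. H4c11 and H4c12 were 91.7% identical, and both were bound in all 4 lists, so their values are uncertain. Of the 23 unbound genes with a window, 4 had another member's window at 90% identity or more, and of the 34 bound genes 2 did. H2bc6 is among the unbound genes here, by the rule of gene ends. The highest identity of a window to that of another member had a median of 68% in the 15 unbound chromosome 13 genes (60% to 99.3%). In the 8 unbound chromosome 3 genes the median was 75% (62.3% to 94.7%), and in the 34 bound genes 64.2% (61.3% to 91.7%). The part of sequence identity in the missing summits was not tested.

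The closest windows of a bound and an unbound gene, chosen after the values were seen, are those of H2ac7, bound in all 4 lists, and H2ac23, bound in none, at 83.7% identity over 300 bases. Capitals mark the motifs named above.
H2ac7 (chr13:23574131-23574380, plus strand): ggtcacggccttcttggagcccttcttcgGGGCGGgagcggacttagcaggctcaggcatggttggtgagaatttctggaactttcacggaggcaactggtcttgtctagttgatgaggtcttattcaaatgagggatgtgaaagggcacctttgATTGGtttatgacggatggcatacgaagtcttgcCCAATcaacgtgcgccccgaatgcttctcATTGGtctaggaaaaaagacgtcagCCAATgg
H2ac23 (chr13:21810117-21810366, plus strand): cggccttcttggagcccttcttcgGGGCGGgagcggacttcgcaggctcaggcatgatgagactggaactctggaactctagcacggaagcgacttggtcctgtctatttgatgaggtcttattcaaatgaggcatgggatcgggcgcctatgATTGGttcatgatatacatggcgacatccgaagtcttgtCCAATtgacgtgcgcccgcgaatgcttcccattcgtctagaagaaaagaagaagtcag
Both hold 1 GC box, while the printed stretch has 4 CCAAT boxes in H2ac7 and 2 in H2ac23. A further CCAAT of H2ac23 stands at position 1, just past the printed stretch but inside the 300-base window. H2ac7 scored 73.4 in RT7 EtOH, 33.2 in RT7 4-OHT, 85.1 in RT10 EtOH and 52.9 in RT10 4-OHT, at or above percentile 97.8 in each list. The nearest summit to H2ac23 in any list lay 43052 bp away.

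Histone genes held some of the highest TBP scores of each list. The pair H2ac6 (chromosome 13, 23683473 to 23683959) and H2bc4 (23684199 to 23692480) shared the summit with the highest histone score in every list, 167 in RT7 EtOH, 87.5 in RT7 4-OHT, 135 in RT10 EtOH and 148 in RT10 4-OHT. It ranked 3, 4, 4 and 3 among all summits of these lists. H3c1, a gene for histone H3 (23761885 to 23762386), followed with scores of 129, 59.9, 118 and 99.99, at ranks 6, 8, 6 and 7. The pair H2ac8 and H2bc8 was second among the pairs in RT7 EtOH and RT10 4-OHT but not in the other lists, and scored 88.0, 23.5, 88.4 and 55.8, at ranks 8, 85, 14 and 27. H2ac12 and H2bc12 (50.2, 37.4, 89.1 and 54.3), H2ac11 and H2bc11 (40.2, 40.3, 58.6 and 31.5) and H2bc3 (47.4, 46.1, 75.4 and 21.7) were each among the 5 highest members of a list.

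The distinct summits at histone genes numbered 28 in RT7 EtOH, 27 in RT7 4-OHT, 28 in RT10 EtOH and 30 in RT10 4-OHT, fewer than the genes because 6 or 7 of them each served a pair. Their median percentile was 94.9, 90.7, 96.6 and 88.5 in that order, against 52.8 to 54.4 for summits at all protein-coding gene ends. Among the 100 highest-ranked summits of a list, 11, 10, 14 and 8 lay at histone genes, and 48, 42, 45 and 32 at any protein-coding gene end. Of all summits of a list, those at histone genes made up 1.05%, 1.96%, 0.903% and 1.37%. Not every member bound in all 4 lists scored high. H2ac10, an H2A gene, had scores of 5.57, 3.95, 8.72 and 9.23, at percentiles of 47.6, 34.1, 65.5 and 68.9.

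**Figure D2:**
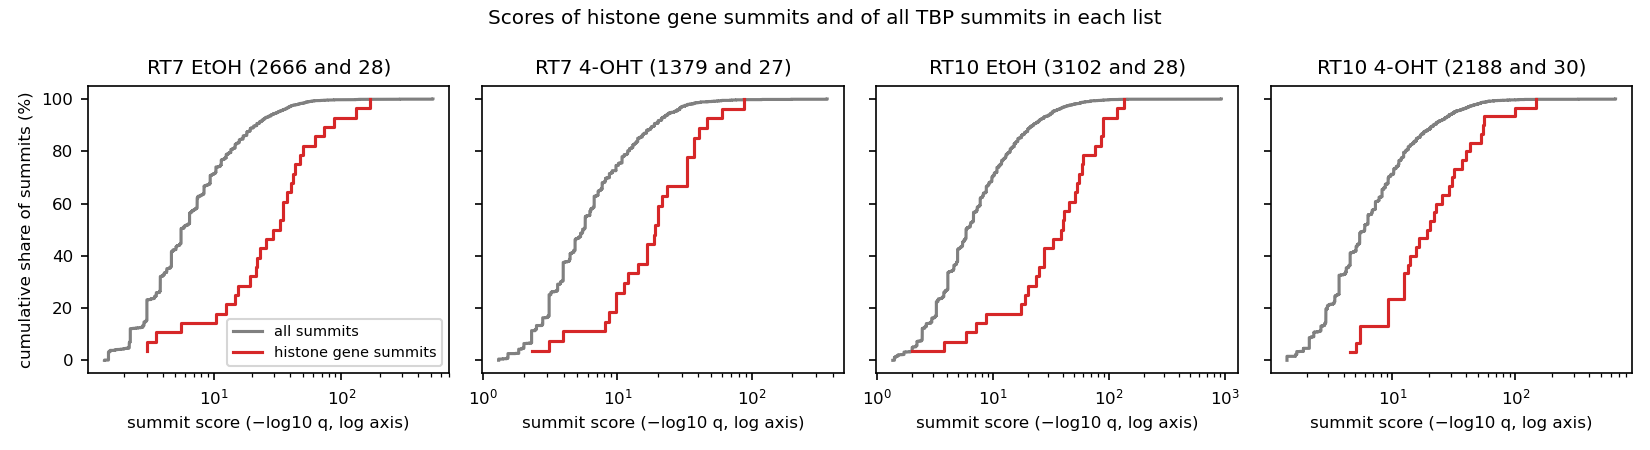
Cumulative share of summits (vertical axis, percent) against the summit score (horizontal log axis, −log10 q) for all summits of a list (grey) and for those at histone genes (red), with their numbers above each panel. The red curves lie to the right of the grey ones over nearly all of their length in each of the 4 lists.

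H4, H3 and H1 genes all had lower median scores than H2A genes of the same list, and H4 had the lowest. The H4 median was 23.7 in RT7 EtOH, 10.5 in RT7 4-OHT, 25.1 in RT10 EtOH and 13.1 in RT10 4-OHT. In the same order the H2A medians were 50.2, 33.2, 58.6 and 42.2. The H3 medians were 37.5, 16.5, 39.8 and 13.4, the last close to that of H4. Those of H1, from 2 or 3 bound genes per list, were 26.3, 19.2, 43.1 and 19.1. The H2B median was below that of H2A in RT7 EtOH only. H4c8 led the H4 genes in every list, with 35.1, 37.4, 52.6 and 30.3. This summit lay 213, 146, 121 and 275 bp from H4c8, in the same order of lists. The long noncoding RNA gene Gm11335 had a nearer end in each list, 97, 30, 5 and 159 bp away. H4c4 scored 21.6, 21.3, 38.2 and 22.8, H4c3 25.6, 16.5, 17.5 and 13.9, and H4c12 21.8, 8.71, 19.9 and 4.53. H4c6 scored 19.4, 9.75, 27.4 and 16.5. H4c2 had 33.4, 11.2, 23.5 and 9.19, and H4c11 had 14.8, 9.73, 25.1 and 9.23. The ranges of H4 and H2A scores overlapped in all 4 lists.

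Among the H3 genes, H3c6 scored 43.5 in RT7 EtOH, 33.2 in RT7 4-OHT, 55.6 in RT10 EtOH and 42.8 in RT10 4-OHT, and H3c7 37.5, 11.9, 39.8 and 39.9. H3c8 reached only 15.7, 3.10, 18.9 and 12.3. Among H2B genes H2bc14, which faces the pseudogene H2ac14, scored 10.4 and 18.9 in RT7 and 60.2 and 37.1 in RT10, for EtOH and 4-OHT. Within their lists these scores were at percentiles 71.9 and 90.2 in RT7 and 98.8 and 96.1 in RT10. The summits of H2bc14 lay within 9 bp of each other in all 4 lists.

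TBP summits lay upstream of H2A and H2B starts. Over all lists and the members with a known start, 28 of 34 H2A values and 30 of 31 H2B values were upstream, with medians of -81.5 and -110 bp. H3 values were upstream in 11 of 14 cases, with a median of -116 bp. H4 values fell on both sides, 14 upstream and 17 downstream, with a median of 33 bp after the start. By list the H4 median was -141 bp in RT7 EtOH, 35.5 bp in RT7 4-OHT, 39 bp in RT10 EtOH and 72.5 bp in RT10 4-OHT. All 10 values of H1 genes lay downstream, and of these 5 were within 250 bp of the start. The summits of a gene are not independent between lists, and those of a pair are the same summit seen from both genes.

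**Figure D3:**
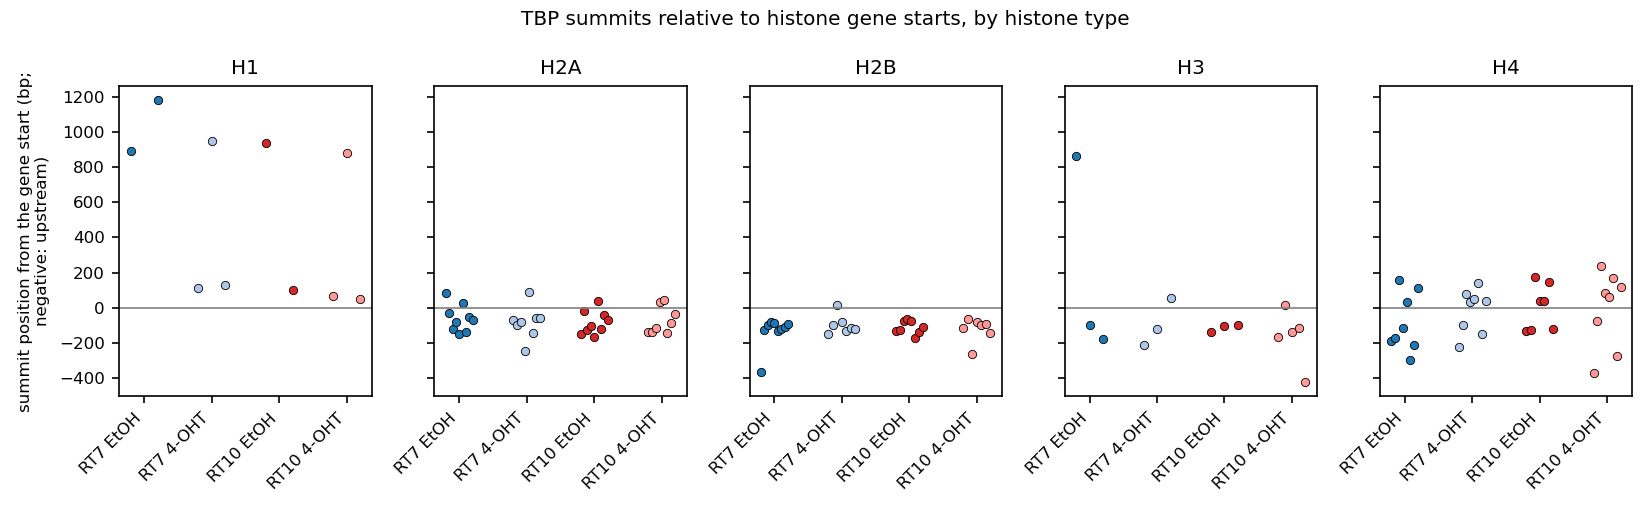
Position of the highest TBP summit relative to the gene start (vertical axis, bp, negative upstream) for each bound histone gene with a known start, in 1 panel per histone type and 1 colour per list. H2A and H2B points cluster just upstream of the start, H4 points lie on both sides, and H1 points lie downstream, up to 1180 bp.

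For 11 pairs of neighbouring H2A and H2B genes the sequence between the genes was 163 to 280 bp long, with a median of 191 bp. In 5 of these pairs the summit lay between the genes in all 4 lists. At H2ac8 and H2bc8 it lay 70, 59, 70 and 38 bp from the end of H2ac8 in the 179 bp between them. At H2ac12 and H2bc12 it lay 80, 83, 101 and 112 bp into 177 bp, and at H2ac6 and H2bc4 137, 145, 120 and 142 bp into 239 bp. H2bc7 with H2ac7 and H2ac11 with H2bc11 were the others. At H2bc13 and H2ac13 the summit lay between the genes in both EtOH lists (62.4 and 51.1). In RT7 4-OHT (20.1) it was 14 bp inside H2bc13 and in RT10 4-OHT (25.3) 31 bp inside H2ac13. At H2bc1 and H2ac1 a summit lay between the genes in RT10 EtOH alone, 131 bp into 280 bp, and in RT7 EtOH it was 83 bp inside H2ac1. The pairs H2ac15/H2bc15, H2ac22/H2bc22, H2bc23/H2ac23 and H2ac20/H2bc21 were unbound.

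Summit positions were repeated closely between lists. For the 29 members bound in all 4, the highest summits spanned a median of 65 bp, and 14 of them spanned 50 bp or less. A summit shared by a pair was counted here for both genes. H3c6, for instance, had its summits within 20 bp, H4c4 within 28 bp and H2ac6 within 25 bp. In 5 members the span was over 250 bp, H2bc13 and H2ac13 (274 bp each), H4c6 (466 bp), H3c8 (475 bp) and H1f3 (1130 bp).

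At the linker histone gene H1f2 (chromosome 13, 23738807 to 23739531) the highest summit lay past the far end of the gene in every list, 165, 221, 215 and 154 bp beyond it, with scores of 29.4, 14.1, 45.2 and 20.3. In RT10 4-OHT alone a second, lower summit (5.06) lay 356 bp before the start of H1f2. H1f3 (23555032 to 23555807) had its summit 405 bp past the far end in RT7 EtOH (23.3). In the other lists it lay 127, 100 and 50 bp after the start (19.2 in RT7 4-OHT, 40.9 in RT10 EtOH and 15.7 in RT10 4-OHT). H1f4 and H1f5 were unbound, with the nearest summit 29109 bp away from H1f5 and 35617 bp from H1f4.

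Most histone genes bound in EtOH were also bound in 4-OHT. Of the 34 members bound in RT7 EtOH, 3 were not bound in 4-OHT, or 8.82% (1.86 to 23.7), against 55.2% of all protein-coding genes bound in that EtOH list. Of the 32 bound in RT10 EtOH, 2 were not bound in 4-OHT, or 6.25% (0.766 to 20.8), against 48.4%. In the other direction 1 of 32 members of the RT7 4-OHT list was unbound in EtOH, or 3.12%, against 12.9%. In RT10 4-OHT 4 of 34 were, or 11.8%, against 20.4%. These counts rest on few genes and moved with the settings. Members bound in EtOH and not in 4-OHT numbered from 1 (lists shortened to equal length) to 6 (scores of at least 10) in RT7, and from 0 (equal length) to 6 (limit of 250 bp) in RT10. Those bound in 4-OHT and not in EtOH numbered from 0 (2000 bp) to 4 (250 bp) in RT7, and from 0 (2000 bp) to 5 (1000 bp) in RT10. Histone summits have higher scores than most in their lists, as given above, and the part of this in the small number missing was not tested.

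Counted by summit, 22 of 28 EtOH summits at histone genes in RT7 had a 4-OHT summit within 250 bp, or 78.6% (59.0 to 91.7). For all summits at protein-coding gene ends the share was 42.3% (39.2 to 45.4). In RT10 it was 23 of 28, or 82.1% (63.1 to 93.9), against 49.0% (46.1 to 52.0). In the other direction histone summits were close to the rest. Of the RT7 4-OHT summits 23 of 27, or 85.2% (66.3 to 95.8), had an EtOH summit, against 80.8% (77.2 to 84.1). In RT10 it was 23 of 30, or 76.7% (57.7 to 90.1), against 75.5% (72.3 to 78.6). Between the EtOH lists of the 2 lines, 22 of the 28 RT7 summits had an RT10 summit within 250 bp, the same share of 78.6%, against 70.3% (67.4 to 73.1) at protein-coding gene ends. The share kept between treatments in RT7 and the share found again in the EtOH list of the other line were the same count of 22, with summits of H2bc9, H4c6, H1f3, H3c4 and H4c2 without a partner in both. At H4c2 this was a second, lower summit (3.01), and its highest one (33.4) had partners 79 bp away in RT7 4-OHT and 19 bp away in RT10 EtOH.

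H2bc1 and H2ac1 had an EtOH summit and no 4-OHT one in each line (23933725 to 23934913). They are a divergent pair whose products are known from the testis. Their shared EtOH summit gave the lowest value of any bound member in either EtOH list, with a score of 3.01 (percentile 19.3) in RT7 and 5.84 (percentile 48.5) in RT10. The nearest 4-OHT summit was 169475 bp or more away in each line. H2bc9 was the third gene in RT7, with a score of 12.4 in RT7 EtOH, 94 bp before its start. In the other 3 lists the nearest summit to H2bc9, 892 to 905 bp away, was that of its neighbour H3c7.

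H1f1 (23763668 to 23764412) was bound after 4-OHT in both lines and in neither EtOH list. Its 4-OHT summits lay 115 bp (20.1) and 66 bp (19.1) after the start, 49 bp apart in the 2 lines, at percentiles 91.4 and 88.0. In the EtOH lists the nearest summit was that of H3c1, 1123 and 1098 bp from H1f1. H3c4 (23575763 to 23576266) had 4-OHT summits 210 bp (16.5) and 137 bp (12.3) before its start. In RT7 EtOH its summit (3.57) lay 357 bp past the other end, and in RT10 EtOH the nearest was 1421 bp away, at the pair H2bc7 and H2ac7. Each peak has 1 summit in these lists and peak widths are not in them. Whether an EtOH peak at H3c1 or at H2bc7 and H2ac7 reached over the neighbouring gene cannot be told apart from an absent peak.

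The other members with a changing call followed the line or a single list. H4c9 (22040960 to 22041362) scored 34.7 in RT7 EtOH, 8.06 in RT7 4-OHT and 12.3 in RT10 4-OHT, 38 to 117 bp after its start. In RT10 EtOH the nearest summit to H4c9 was 1711 bp away, at H2ac11 and H2bc11. H3c2 (23752345 to 23752840) was bound in both RT10 lists (27.4 and 13.4), 140 and 167 bp before its start, and in neither RT7 list, where the nearest summit lay 1230 and 1165 bp away, at H2ac4. H3c3 was bound in RT10 4-OHT alone (5.41, 14 bp after its start), with a summit 1043 to 1081 bp away in the other lists. Of the 8 members with a changing call, all but H2bc1 and H2ac1 had a summit within 1711 bp in the lists where they were not bound.

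No member lay between 445 and 892 bp from its nearest summit in any list. Just inside were H3c7 in RT7 EtOH (445 bp), H3c8 in RT10 4-OHT (421 bp) and H1f3 in RT7 EtOH (405 bp). Just outside were H2bc9 (892 bp, RT10 EtOH), H4c1 (958 bp, RT10 4-OHT) and H2bc6 (1003 bp, RT10 EtOH). H2bc6 is a special case, because its annotated span of 23583670 to 23621124 holds a second start at 23585970, 2300 bp from a gene end. All 4 lists had a summit 140 to 190 bp upstream of that inner start, with scores of 31.7 in RT7 EtOH, 15.3 in RT7 4-OHT, 35.3 in RT10 EtOH and 16.4 in RT10 4-OHT. The rule by gene ends counts H2bc6 as unbound.

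Promoter motifs differed by histone type. CCAAT was present in the windows of all 5 H1, 17 H2A, 14 H2B and 10 H3 genes with an entry, and in 3 of 11 H4 genes, against 37.9% of 27025 promoters in the table. TATAAA was found in 34 of 57 members (59.6%), against 14.2% of all promoters, and TATANA, which takes in TATAAA, in 45 (78.9%), against 25.4%. Between 40 and 20 bases before the start, TATAAA stood in 12 of 57 members (21.1%), against 2.75% of all. The octamer ATTTGCAT, bound by POU factors such as Oct-1, was found in 6 H2A and 6 H2B genes and in no H1, H3 or H4 gene, against 1.75% of all promoters. AAACACA was found in 4 of 5 H1, 2 of 17 H2A and 2 of 14 H2B genes, against 7.14% of all promoters. No H3 or H4 window held it. GGGCGG was found in 8 of 11 H4 genes and 1 of 14 H2B genes, against 35.9%. Windows of divergent pairs overlap, so 1 match can count for both genes.

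Motif shares were also counted in bound and unbound members. By the rule of gene ends H2bc6 was counted as unbound, despite the summits at its inner start. TATAAA was in 20 of 34 members bound in at least 1 list (58.8%) and in 14 of 23 unbound ones (60.9%). CCAAT was in 28 of 34 (82.4%) and 21 of 23 (91.3%), and GGGCGG in 35.3% and 39.1%. The octamer was in 10 of 34 (29.4%) and 2 of 23 (8.70%). No test was made, and a match describes only these letters.

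**Figure D4:**
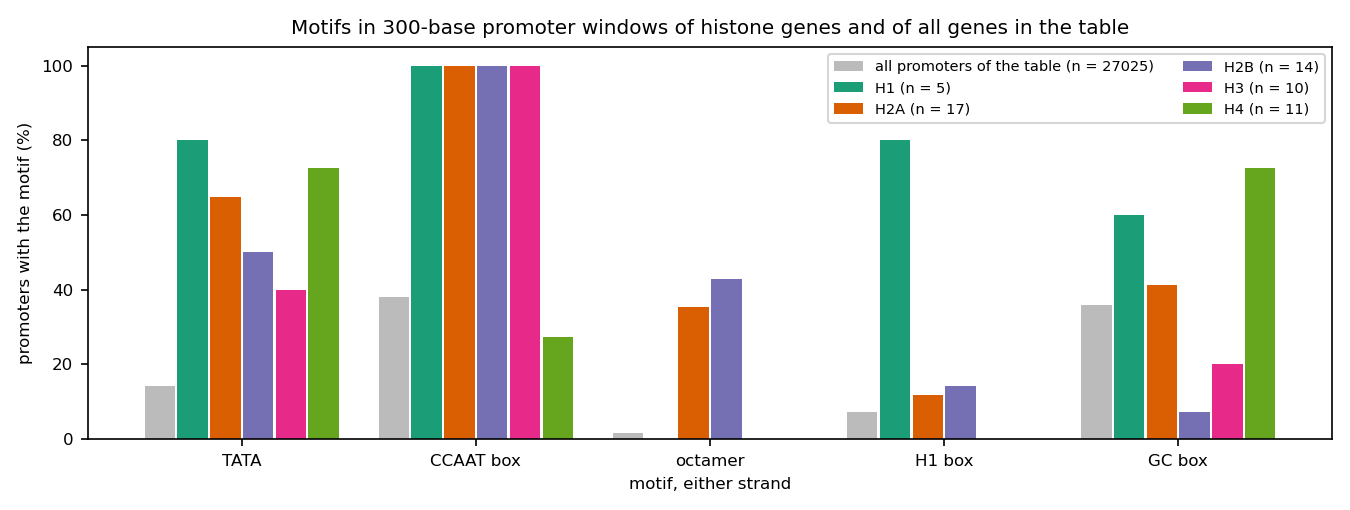
Share of 300-base promoter windows with each motif (vertical axis, percent; the TATA box, CCAAT box, octamer, H1 box and GC box as spelled above, on either strand) for all promoters of the table (grey) and for each histone type (colours), with n in the key. CCAAT is in every H1, H2A, H2B and H3 window and in few H4 windows, and the octamer is in H2A and H2B windows only.

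The chromosome 13 region also holds 77 tRNA genes, where TBP serves RNA polymerase III. Of the 113 histone gene summits of the 4 lists, 3 lay within 500 bp of a tRNA gene's end, the nearest at 350 bp.

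A fixed list of 19 histone genes was taken as replication-independent, with mRNAs made through the whole cell cycle or in special cell types. It also held H2bu2 and H3f4, which lie beside the H2A gene H2aw on chromosome 11. The class of each gene was not checked. Of these 19 genes, 4, 2, 4 and 2 were bound in RT7 EtOH, RT7 4-OHT, RT10 EtOH and RT10 4-OHT. That is 21.1% (6.05 to 45.6) in each EtOH list and 10.5% (an interval with the upper end at 33.1) in each 4-OHT list. The shares of all protein-coding genes were 5.31%, 2.73%, 5.95% and 3.85%, and the intervals of the 4-OHT lists included them. H2az1, which encodes the variant H2A.Z, was bound in all 4 lists (33.4, 16.5, 27.4 and 18.0), 36 to 68 bp from its end. H1f10, a linker histone gene, was bound in RT7 EtOH (7.45), RT10 EtOH (7.73) and RT10 4-OHT (4.53). H2aj was bound in the EtOH lists only (6.49 and 8.72). Single lists held H2az2 (2.23, RT7 EtOH), H3f3a, an H3.3 gene (3.95, RT7 4-OHT), and H1f0 (6.35, RT10 EtOH).

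Of 28 genes that serve histone transcription, mRNA processing and histone deposition, 3, 3, 5 and 0 were bound in the same order. The shares were 10.7% (2.27 to 28.2) in both RT7 lists and 17.9% (6.06 to 36.9) in RT10 EtOH, and for 0 of 28 in RT10 4-OHT the interval reached 12.3%. The intervals of RT7 EtOH, RT7 4-OHT and RT10 4-OHT included the shares of all protein-coding genes just given, and that of RT10 EtOH began above its 5.95%. Slbp, which binds the stem loop of histone mRNA, scored 19.4 in RT7 EtOH, 9.15 in RT7 4-OHT and 24.8 in RT10 EtOH. Asf1b, a histone chaperone gene, was bound in both EtOH lists (15.3 and 12.1), and Nfya, a subunit of the CCAAT-binding NF-Y, in both RT7 lists (8.42 and 7.68). Cpsf2 was bound in RT7 4-OHT (2.30) and RT10 EtOH (2.44), and Casp8ap2 (4.58) and Chaf1a (9.74) in RT10 EtOH alone. Npat, the coactivator of histone genes, and Hinfp, which binds H4 promoters, had no summit in any list.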

How the data were processed

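TBP CUT&RUN libraries of RT7 and RT10 mouse ES cells, 2 per line and treatment and 1 of IgG, underlie 4 deposited summit lists, 1 per line and treatment. The submitters' processing notes name cutadapt 4.0, Bowtie2 2.4.4, SAMtools 1.15.1, bedtools, deepTools and MACS2 2.2.7.1 and the build mm10, without roles or parameters. The deposited values are −log10 q-values of TBP over IgG at the summit, per the peak names and values. The lowest was 1.30, near the −log10 of 0.05. Whether libraries were pooled is not stated. Labels and titles of 2 IgG libraries (RT7 EtOH, RT10 4-OHT by title) disagree on treatment; the peak names match the titles. Libraries of the TAFs were not used here, and loss of Taf7 or Taf10 was not checked.

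Genes with coordinates (49993) and promoter windows (250 bases before to 50 after the start) came from RefSeq GRCm38.p6. Distances were taken to the nearer gene end, the highest-scoring summit within 500 bp gave a member's value, and summits within 250 bp were called shared. Promoter identity is identical bases over 300 in a global alignment (match 1, mismatch -1, gap -2 and -0.5). Members and lists were chosen with earlier results of these data known. Named genes were the 5 highest members per list, all members bound in some or no lists, the 3 nearest the limit on each side and bound genes of the fixed lists, and some others were picked with values in view. Alternatives were other distances, scores of at least 10, lists of equal length, 1 gene per summit, starts only, and no H2ac1 and H2bc1. The code was tested on simulated summits. Python 3.11.15, NumPy 2.4.6, pandas 2.3.3, SciPy 1.17.1, Biopython 1.88 and matplotlib 3.10.9 were used.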

Additional observations from a re-analysis of the deposited data

Results flagged for a closer look

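The number of bound histone genes moved in opposite directions with 4-OHT in the 2 lines, from 34 to 32 in RT7 and from 32 to 34 in RT10. The difference was not tested, since there is 1 list per group. Both directions turned at 250 bp, where the counts were 29 and 31 in RT7 and 31 and 29 in RT10. With lists of equal length they were 31 and 32 in RT7 and 30 and 34 in RT10.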

How the results depend on the processing

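No paired analysis was possible because each group has 1 list, which carries no replicate number, and for the same reason no library could be left out. Bound counts stayed within 1.5 times the reported ones under all 8 alternatives, between 26 and 40. With starts only, which 57 members have, they were 29, 29, 29 and 32, gaining H2bc6 in each list. Genes bound in EtOH and not in 4-OHT numbered 6 (scores of at least 10) and 1 (equal lengths) in RT7, and 6 (250 bp) and 0 (equal lengths) in RT10. Genes bound in 4-OHT and not in EtOH numbered 4 (250 bp), 0 (2000 bp), 2 (scores of at least 10) and 2 (equal lengths) in RT7, and 0 (2000 bp) in RT10. The cause was not tested, save at 2000 bp. There a neighbour's summit counts for H1f1 in RT7 EtOH, and for each of H4c9, H3c4, H3c3 and H1f1 in RT10 EtOH. The shares of shared summits ran from 67.9% to 92.9% for distances of 100 to 1000 bp, ranking among summits at protein-coding gene ends gave median percentiles of 88.9 to 95.9, and the nearest summit gave the same median scores. Read depth is unknown, so its limit cannot be given.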

Other observations

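Other histone genes that the naming rule does not take, chosen after their values were seen, also carried TBP. H2aw, an H2A gene of chromosome 11 (58954685 to 58955192), was bound in all 4 lists, with scores of 26.8 in RT7 EtOH, 8.18 in RT7 4-OHT, 32.8 in RT10 EtOH and 12.8 in RT10 4-OHT. Its neighbours H2bu2 and H3f4 had their nearest summits 5208 bp and 6979 bp away. H4f16, an H4 gene of chromosome 6 (136803993 to 136804431), was bound in all 4 as well (23.1, 7.70, 19.9 and 21.5).

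On chromosome 13 the summit of H2bc3 lay 50 to 122 bp from the end of the H2A pseudogene H2ac5-ps, and that of H2bc14 157 to 166 bp from H2ac14. H1f6, the testis linker histone gene, had its nearest summit 1829 to 2025 bp away. H4bc24, as the table names it, lies next to H2ac24 in the stretch without summits, with the nearest 16440 bp away.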
